A study of Homo sapiens with 6 samples.

Results

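The genes described here are host genes of small nucleolar RNAs (snoRNAs), in NCI-H69, an established human line of small cell lung cancer. They are the genes whose symbol is SNHG followed by digits, together with GAS5, ZFAS1, DANCR, EPB41L4A-AS1, NOP56 and TAF1D, which gave 34 members among 60671 gene rows. NOP56 and TAF1D code for proteins, and the other 32 were treated as noncoding. SNHG32, formerly C6orf48, is coding in GENCODE 29 and noncoding in RefSeq. The members were chosen by symbol, with no threshold on a measured value, but the group was selected on results of the comparison of GNF5 with DMSO, which were known when it was proposed. Every fold change and call of a member below therefore describes these libraries and is not independent evidence. The cells, of wild-type genotype per the labels, were given the ABL kinase inhibitor GNF5 or its vehicle DMSO for 48 h, with 3 libraries each. GNF5 acts allosterically, at the myristate-binding site of ABL. Its dose is 20 µM in the label of each sample, while the treatment protocol gives the same figure in millimolar, and the conflict is unresolved. All libraries come from 1 cell line, and nothing in the labels says that replicates were separate cultures, so the spread between them may be technical.

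A snoRNA host gene is transcribed and spliced like any other, and its introns hold the snoRNAs. Box C/D snoRNAs guide 2′-O-methylation and box H/ACA snoRNAs guide pseudouridylation of ribosomal and other RNAs, and the related scaRNAs act in Cajal bodies. In a noncoding host the spliced exons are in many cases a by-product that ribosomes engage and nonsense-mediated decay (NMD) then removes, so the level of the spliced RNA depends on both synthesis and decay. Many hosts start with a terminal oligopyrimidine tract (TOP), a C followed by a run of pyrimidines, as the messenger RNAs of ribosomal proteins and translation factors do, and GAS5 is the textbook case of a host RNA that accumulates when growth stops.

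The annotated starts of several members carry such a tract. A start was counted as TOP when its first base was C and the next 4 bases were all C or T, read on the gene's own strand only. RefSeq promoters were found for 30 members, and 8 of them, or 26.7%, had a TOP start, against 4.07% of all 35116 promoters in that table. The 8 were ZFAS1, SNHG32, SNHG5, SNHG4, SNHG12, SNHG19, SNHG18 and TAF1D. The lines below show 30 bases of 7 of these starts (RefSeq, GRCh38.p14), from 10 bases before the start, with the tract in capitals, as they show what the tract looks like in members described later.
ZFAS1, chr20:49278632-49278661, plus strand: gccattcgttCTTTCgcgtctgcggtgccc
SNHG32, chr6:31834906-31834935, plus strand: cattttagttCTTTTTgcgaagtgggctcg
SNHG5, chr6:85678714-85678743, minus strand: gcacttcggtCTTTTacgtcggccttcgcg
SNHG4, chr5:139274091-139274120, plus strand: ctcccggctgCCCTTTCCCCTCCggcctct
SNHG12, chr1:28581854-28581883, minus strand: gcttcagcgcCCTTTCTCCCCgccgcattc
SNHG19, chr16:2155339-2155368, minus strand: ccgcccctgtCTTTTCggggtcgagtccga
TAF1D, chr11:93741476-93741505, minus strand: aatagccaacCCTTTTCTTCCgcacggttg

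GAS5, SNHG29 and SNHG16 have no TOP start in the RefSeq table, but GENCODE 29 lists transcripts of each that begin with one. For GAS5 this held for 6 of 29 transcripts, for SNHG29 for 6 of 30 and for SNHG16 for 2 of 8. The reverse was seen for SNHG32, whose RefSeq start is TOP while 0 of its 11 GENCODE 29 transcripts begin with one. The first 20 bases of their most frequent TOP start (GRCh38) follow, and those of GAS5 and SNHG16 share their first 11 bases.
GAS5, chr1:173867970-173867989, minus strand: CTTTTCgaggtaggagtcga
SNHG29, chr17:16439037-16439056, plus strand: CTTTTCattcccgttgttat
SNHG16, chr17:76557769-76557788, plus strand: CTTTTCgaggtcggccgcgt
Over all GENCODE 29 transcripts, 42 of 339 member transcripts, or 12.4%, had a TOP start, against 2.6% of the transcripts of all tested genes. At least 1 such transcript was listed for 16 of the 34 members, and for 13.5% of tested genes. A member with many listed transcripts has more chances of one. The next 4 starts, of members taken up below, hold no TOP tract by this definition at the RefSeq start, and are shown in the same 30-base window for contrast.
SNHG10, chr14:95534853-95534882, minus strand: cttatgccggagcctcatcctactgcctta
DANCR, chr4:52712384-52712413, plus strand: tgcgcgccccgcccttgcccagagtcttcc
NOP56, chr20:2652622-2652651, plus strand: cgctagccgcattgcgagccgaacccggga
EPB41L4A-AS1, chr5:112160516-112160545, plus strand: tcatgaattctgtcgggtcccaaaatacgt
No match says only that these letters are not at that annotated start. In DANCR a C followed by 4 pyrimidines begins at the very next base.

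Levels below are counts per 1000000 counts (CPM) after TMM scaling, and ± after a level is the SD over 3 libraries. A gene is called when its adjusted p in edgeR's quasi-likelihood test across all 20734 tested genes is under 0.05, and "rose" and "fell" are used of called genes only. Log2 fold changes are GNF5 over DMSO, with their standard error (SE). Library totals ran from 46148701 to 58771023 counts with GNF5 and from 56467189 to 60697602 with DMSO. The neuroendocrine markers of this cell type were abundant in both groups, INSM1 at 1464 ± 45.8 CPM with GNF5 and 1403 ± 34.1 with DMSO and CHGA at 254.1 ± 17.2 and 246.8 ± 3.77, neither of them called. Of the 7 markers 2 rose, NCAM1 (728.4 ± 10.5 CPM with GNF5, 483 ± 11.1 with DMSO) and DLL3 (86.7 ± 2.34 and 72.5 ± 5.23), and 1 fell, SYP (150.4 ± 4.11 and 181.8 ± 10.1). The 4 fibroblast markers summed to between 64.7 and 71.9 CPM with GNF5 and between 120 and 125.4 with DMSO. Nearly all of that sum is COL1A2, which fell (63.5 ± 3.61 and 119.2 ± 2.6), while COL1A1 rose (5.28 ± 0.356 and 2.89 ± 0.16). The 4 leukocyte markers reached at most 0.554 CPM with GNF5 and 1.75 with DMSO, and the 4 of lung epithelium 0.539 and 0.989, with CD3E and SFTPB at 0 counts. The part of these shifts in the results was not tested. Among the called genes of the whole table, GNF5 replicate 1 lay farthest from DMSO in 53.5% of those that rose and 48.3% of those that fell. It was the farthest of the GNF5 libraries in 15 of the 21 members that rose and 3 of the 4 that fell, and leaving it out gave 20 members higher and 3 lower.

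With GNF5, most noncoding snoRNA hosts were higher, led by GAS5 and ZFAS1 at over 3-fold, and of the 2 protein-coding hosts TAF1D rose 1.85-fold and NOP56 did not pass the test. Of the 34 members, 32 were tested. SNHG18 had 0 counts in all libraries, so its level could be as high as 0.00903 CPM over the 6 libraries together, and SNHG28 had 29 counts in all. Of the 32 tested members 21 were called higher and 4 lower, where 31.0% of all tested genes were higher and 30.7% lower, so that 65.6% of the tested members rose. Their median log2 fold change was 0.56, against 0.01 over all tested genes. In a test against a 1.5-fold change, added after seeing the data, 13 members were higher and 1 lower, beside 5.98% and 7.52% of all tested genes. The lowest GNF5 library lay above the highest DMSO library for 21 tested members, which held for 33.1% of all tested genes, and for 4 members, against 32.8% of all genes, the GNF5 libraries all lay below.

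**Figure D1:**
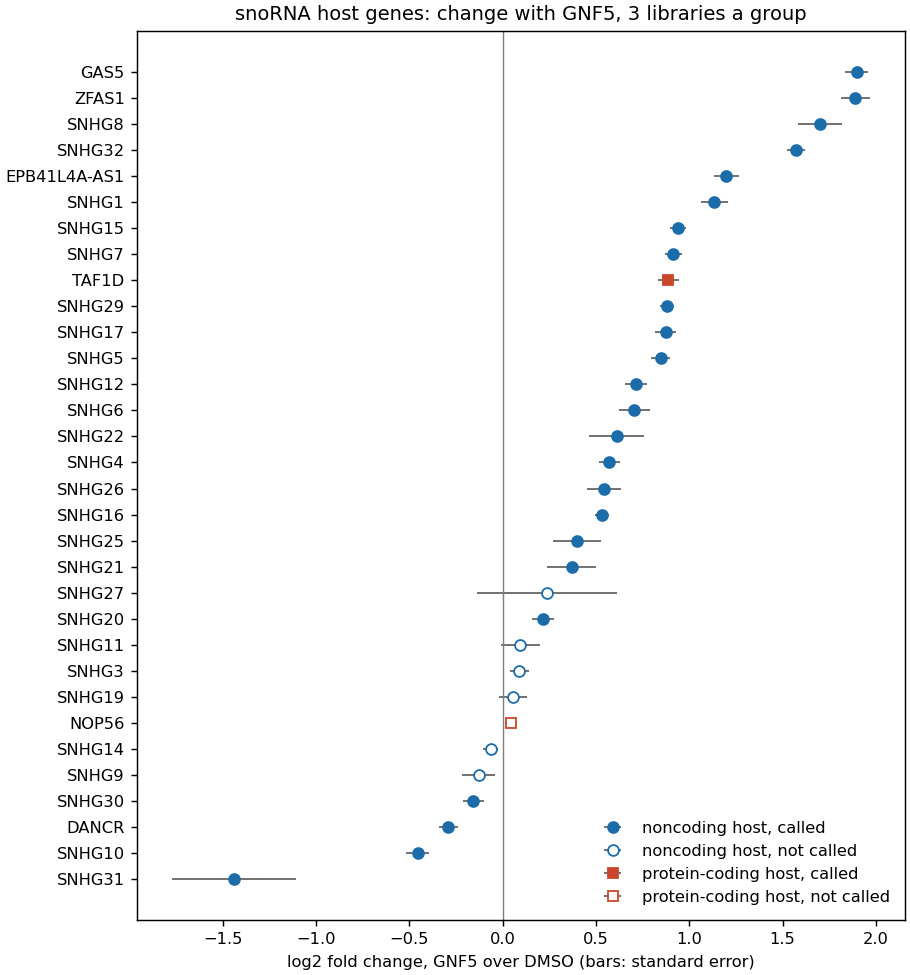
Log2 fold change of each of the 32 tested snoRNA host genes, GNF5 over DMSO (x axis, bars are the standard error, 3 libraries a group), ordered by size. Filled symbols were called at an adjusted p under 0.05, open ones were not, and squares are the coding hosts NOP56 and TAF1D. GAS5, ZFAS1, SNHG8 and SNHG32 stand highest and SNHG31 lowest.

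As a share of all counts, the 32 noncoding members took 0.257%, 0.229% and 0.243% in the GNF5 libraries, against 0.133%, 0.132% and 0.134% in the DMSO libraries. All 3 GNF5 shares were above the DMSO ones. In bulk RNA, a change in the number of cells that hold a transcript and a change in its amount per cell cannot be told apart. GAS5 and SNHG29 together held 0.0854%, 0.0756% and 0.0824% with GNF5, against 0.0356%, 0.036% and 0.0369% with DMSO. The 2 coding members took 0.059%, 0.0557% and 0.055% with GNF5, against 0.0442%, 0.0434% and 0.0423% with DMSO.

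GAS5 (growth arrest-specific 5, ENSG00000234741, chromosome 1, 173858559 to 173868882, GRCh38, minus strand) hosts a cluster of box C/D snoRNAs, and its RNA is also known as a decoy for the glucocorticoid receptor. The gene rows list no named snoRNA inside it. It had 312.1, 254.9 and 277.8 CPM in the GNF5 libraries, against 73.7, 75.8 and 77.1 in the DMSO libraries. The groups were far apart, and the GNF5 libraries spread more among themselves than the DMSO ones. Its log2 fold change was 1.90 ± 0.062, or 3.73-fold. ZFAS1 (ENSG00000177410, chromosome 20, 49278178 to 49299600, plus strand), which lies antisense to the start of the gene ZNFX1 and holds SNORD12 family snoRNAs, had 78.3, 61.4 and 73 CPM with GNF5, against 18.7, 18.6 and 20.2 with DMSO. It rose 3.71-fold (log2 fold change 1.89 ± 0.077), and its tract is the first printed above. SNHG8 (ENSG00000269893, chromosome 4, 118278709 to 118285316), host of SNORA24, had 70.1, 52.7 and 60.2 CPM with GNF5, against 18.5, 17.5 and 20.3 with DMSO. It rose 3.25-fold (log2 fold change 1.70 ± 0.116).

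SNHG32 (ENSG00000204387, chromosome 6, 31834608 to 31839766), host of SNORD48 and SNORD52, had 210, 178.6 and 187.1 CPM with GNF5, against 65.3, 62.8 and 65.5 with DMSO. It rose 2.97-fold (log2 fold change 1.57 ± 0.047), though 29.1% of its exon bases also belong to an exon of a second gene of the same strand, where fragments were not counted. EPB41L4A-AS1 (ENSG00000224032, chromosome 5, 112160526 to 112164818), host of SNORA13, had 61.7, 49.2 and 52 CPM with GNF5, against 22.6, 24 and 24.4 with DMSO, a 2.3-fold rise (log2 fold change 1.20 ± 0.068). No GNF5 library of these 5 genes overlapped a DMSO library, and GNF5 replicate 1 was the highest and replicate 2 the lowest in each.

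Among the most abundant noncoding members per exon length, most rose by less. Levels were ranked by CPM per kilobase of exon over all 6 libraries, with exons merged over all listed transcripts, so a gene with many unused exons is ranked too low. SNHG6 stood first, at 162.6 CPM per kilobase with GNF5 and 99.8 with DMSO, followed by SNHG32 (106.5 and 35.9), SNHG29 (73.7 and 40), SNHG1 (55.5 and 25.3) and SNHG19 (40.7 and 39.2). GAS5 stood at 58.2 and 15.6. SNHG7, SNHG16, SNHG25 and SNHG9 complete the 10 noncoding members of highest level. In the order of the means with DMSO alone GAS5 was below SNHG19 and SNHG1, and with GNF5 it was above both.

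SNHG29 (formerly LRRC75A-AS1), the noncoding member with the most counts, had 542.8, 497.2 and 547 CPM with GNF5, against 282.7, 285.7 and 293.6 with DMSO (log2 fold change 0.88 ± 0.036). SNHG1, which hosts SNORD22, SNORD25 and neighbouring snoRNAs, had 248.7, 202.8 and 209.4 CPM with GNF5, against 98.5, 101.9 and 100.8 with DMSO (1.13 ± 0.071). In both genes the groups were well apart. SNHG6, host of SNORD87, had 219.6, 178.5 and 210.3 CPM with GNF5, against 127.9, 116.4 and 128.9 with DMSO (0.71 ± 0.085), and it did not pass the test against 1.5-fold. SNHG7, host of the SNORA17 genes, had 149.6, 129.9 and 138.6 CPM with GNF5, against 76.7, 70.6 and 74.7 with DMSO (0.91 ± 0.044). SNHG16, host of the SNORD1 genes, had 137.7, 130.8 and 138 CPM with GNF5, against 91.3, 93.4 and 96.8 with DMSO (0.53 ± 0.037).

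The short members at the top of that ranking did not all rise. SNHG19, host of SNORD60, had 13.4, 13 and 15.5 CPM with GNF5, against 14, 13.2 and 13.1 with DMSO, and the groups overlapped (log2 fold change 0.06 ± 0.074, edgeR adjusted p = 0.536). Its annotated start carries a TOP tract, so it is the tested member with such a RefSeq start that was not called. SNHG9, host of SNORA78, also overlapped, at 6.98, 7.01 and 8.02 CPM with GNF5 and 8.27, 7.44 and 8.36 with DMSO (-0.13 ± 0.09, edgeR adjusted p = 0.219). SNHG25 had 5.23, 3.86 and 4.35 CPM with GNF5 and 3.6, 2.94 and 3.73 with DMSO (0.40 ± 0.128). That call was lost without DMSO replicate 2 (edgeR adjusted p = 0.0743) and without GNF5 replicate 1 (0.0982), and 48.6% of the gene's exon bases are shared with another gene model.

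**Figure D2:**
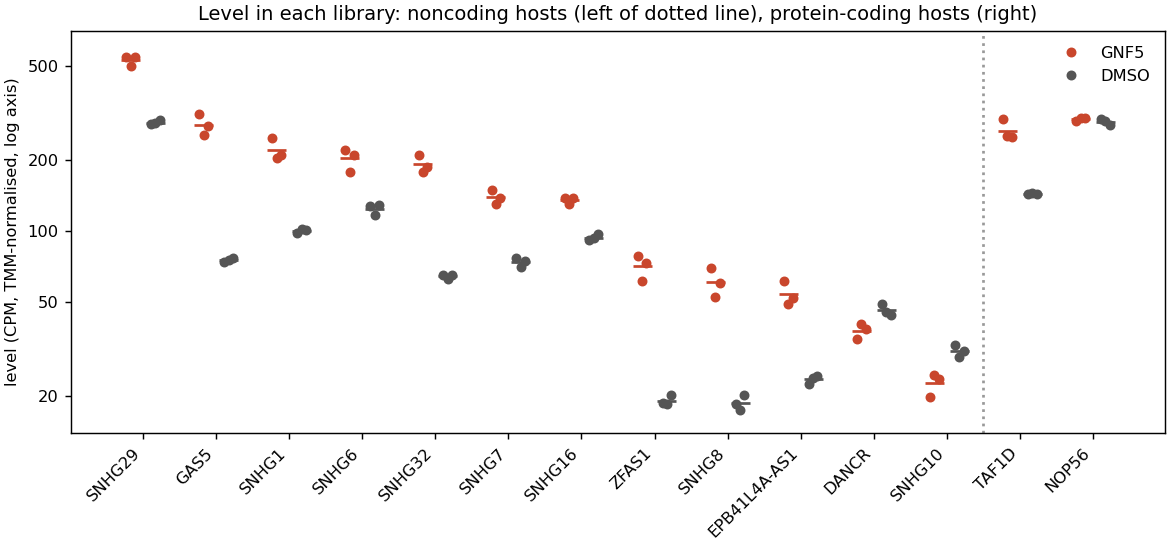
Level in each library (points, CPM on a log axis) and group mean (bar) of 12 noncoding hosts, left of the dotted line, and the 2 coding hosts, right of it, with GNF5 in red and DMSO in grey. The groups are apart in every gene shown except NOP56, and DANCR and SNHG10 are the 2 in which GNF5 lies below DMSO.

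The other noncoding members that rose were SNHG15, SNHG17, SNHG5, SNHG12, SNHG22, SNHG4, SNHG26, SNHG21 and SNHG20, with log2 fold changes from 0.94 for SNHG15 to 0.22 for SNHG20. SNHG5, whose introns hold the U50 snoRNA, had 72.9 ± 6.75 CPM with GNF5 and 40.5 ± 1.4 with DMSO, and SNHG15 had 68.6 ± 1.85 and 35.8 ± 0.665. SNHG12 and SNHG4, whose TOP tracts are the longest of the 6 noncoding ones printed from RefSeq, rose by 0.71 ± 0.059 and 0.57 ± 0.057 on the log2 scale. SNHG12 was at 29.6 ± 2.25 CPM with GNF5 and 18.1 ± 0.797 with DMSO, and SNHG4 at 28.2 ± 1.39 and 19 ± 1.1. SNHG21, at 3.81 ± 0.656 CPM with GNF5 and 2.93 ± 0.138 with DMSO, lost its call without DMSO replicate 3 (edgeR adjusted p = 0.0668) and without GNF5 replicate 2 (0.164). Of its exon bases, 72.9% are shared with another gene model.

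A few noncoding hosts fell. SNHG10 (ENSG00000247092, chromosome 14, 95521943 to 95534889), host of SCARNA13, had 20, 24.6 and 23.7 CPM with GNF5, against 33.1, 29.3 and 31.1 with DMSO (log2 fold change -0.46 ± 0.064). DANCR (ENSG00000226950, chromosome 4, 52712325 to 52723623), known for holding progenitor cells undifferentiated and host of SNORA26, had 34.9, 40.3 and 38.5 CPM with GNF5, against 49.1, 45.6 and 44.3 with DMSO (-0.29 ± 0.052). In both genes every GNF5 library lay below every DMSO library. SNHG30, host of SNORD7, had 19.3, 20.7 and 21.9 CPM with GNF5 and 23.4, 22.1 and 23.6 with DMSO (-0.16 ± 0.058), and the nearest libraries of the groups almost touched. Its call was lost without DMSO replicate 1 (edgeR adjusted p = 0.054), DMSO replicate 3 (0.0778) or GNF5 replicate 1 (0.127). SNHG31 was near the limit of the test, with 14, 8 and 26 counts in the GNF5 libraries and 40, 51 and 54 in the DMSO libraries (-1.44 ± 0.331).

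The remaining noncoding members were not called. SNHG14, the very long imprinted transcript of the Prader-Willi region whose introns hold the SNORD115 and SNORD116 clusters and which runs antisense to UBE3A, had 122.3, 131.3 and 127 CPM with GNF5, against 127.7, 141.3 and 129 with DMSO (log2 fold change -0.07 ± 0.04, edgeR adjusted p = 0.155). It holds 84 annotated snoRNA genes, the most of any member, and the groups overlapped. SNHG3, which carries SNORA73A and SNORA73B, had 27.2, 28.2 and 29.8 CPM with GNF5, against 27.7, 26.4 and 25.9 with DMSO (0.09 ± 0.052, edgeR adjusted p = 0.139). Its span lies inside that of the coding gene RCC1 on the same strand, and 11.0% of its exon bases are shared with another gene model. RCC1 fell (55.6 ± 0.378 CPM with GNF5, 73.4 ± 1.39 with DMSO). SNHG11 and SNHG27 had log2 fold changes of 0.09 ± 0.105 and 0.24 ± 0.374, and SNHG27 was at 0.341 CPM with GNF5 and 0.293 with DMSO.

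The coding hosts differed from each other. TAF1D (ENSG00000166012, chromosome 11, 93729948 to 93784391), a subunit of the selectivity factor SL1 that brings RNA polymerase I to the ribosomal DNA promoter, holds 8 annotated snoRNA genes. It had 297.2, 252.4 and 248.9 CPM with GNF5, against 143.5, 144.8 and 143.2 with DMSO, and rose 1.85-fold (log2 fold change 0.89 ± 0.055), with 11.9% of its exon bases in another gene model. NOP56 (ENSG00000101361, chromosome 20, 2652593 to 2658393), a core protein of the box C/D particle that holds 5 snoRNA genes, had 293.1, 301.8 and 301.2 CPM with GNF5, against 298, 291.2 and 281.4 with DMSO. These groups overlapped (0.04 ± 0.033, edgeR adjusted p = 0.277). Of the 30 tested noncoding members 20 rose and 4 fell, with a median log2 fold change of 0.56 and a range of -1.44 to 1.90, and TAF1D and NOP56 both lay inside that range. With 2 coding genes, the members give no more than these values for a contrast of coding with noncoding hosts.

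A wider contrast came from the annotation. Outside the members, 214 genes had a span that held a named snoRNA or scaRNA gene on the same strand, 180 of them coding. Of the 173 tested coding ones, 86 rose and 54 fell (49.7% and 31.2%), with a median log2 fold change of 0.11, beside 36.2% and 34.1% of all 14435 tested coding genes with a median of 0.02. The 4 calls of lowest p were NCAPD2, a condensin subunit, which fell (139 ± 2.14 CPM with GNF5, 298.3 ± 3.93 with DMSO), and CCNB1IP1 (284.9 ± 17.7 and 134.2 ± 6.27), the mitochondrial chaperone HSPA9 (1307 ± 17.8 and 763.7 ± 12) and the nucleolar protein NOP53 (365.9 ± 9.7 and 213.1 ± 5.32), which rose. The 28 ribosomal protein hosts among them had a median of 0.22, and 24 rose while 0 fell in the edgeR test (1 fell at an unadjusted p under 0.05, and 1 in DESeq2). The other 145 had a median of 0.06, with 62 higher and 54 lower. Of these 173 coding hosts, 12 passed the test against 1.5-fold as higher, as did 12 of the 30 noncoding members and 5.98% of all tested genes. The members were selected on results of this comparison and the other hosts by annotation. These counts are therefore no test of coding against noncoding hosts.

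Other noncoding hosts were few. Of 27 such genes 6 were tested and 3 rose, among them MEG8 of the imprinted DLK1-MEG3 region (18.6 ± 1.95 CPM with GNF5, 14 ± 0.428 with DMSO) and TMEM161B-DT (80 ± 0.692 and 72.6 ± 3.94). Their median log2 fold change was 0.07. Of 5 tested pseudogene hosts 4 rose, among them CCT6P1 (20.8 ± 1.28 CPM with GNF5, 10.5 ± 0.476 with DMSO), CCT6P3 (3.4 ± 0.617 and 2.21 ± 0.279) and RPL32P3 (8.24 ± 0.511 and 6.24 ± 0.333), whose values are uncertain because they resemble their parent genes. Among all 3838 tested noncoding genes, 18.6% rose and 26.1% fell, with a median of -0.07 (log2). Of the 67 noncoding genes with a mean log2 CPM of at least 5, SNHG32 included, 14 were members, and 11 of the 20 with the highest log2 fold change were members. GAS5, ZFAS1 and SNHG8 held the first 3 places. The other 53 went both ways, with 21 higher and 19 lower.

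**Figure D3:**
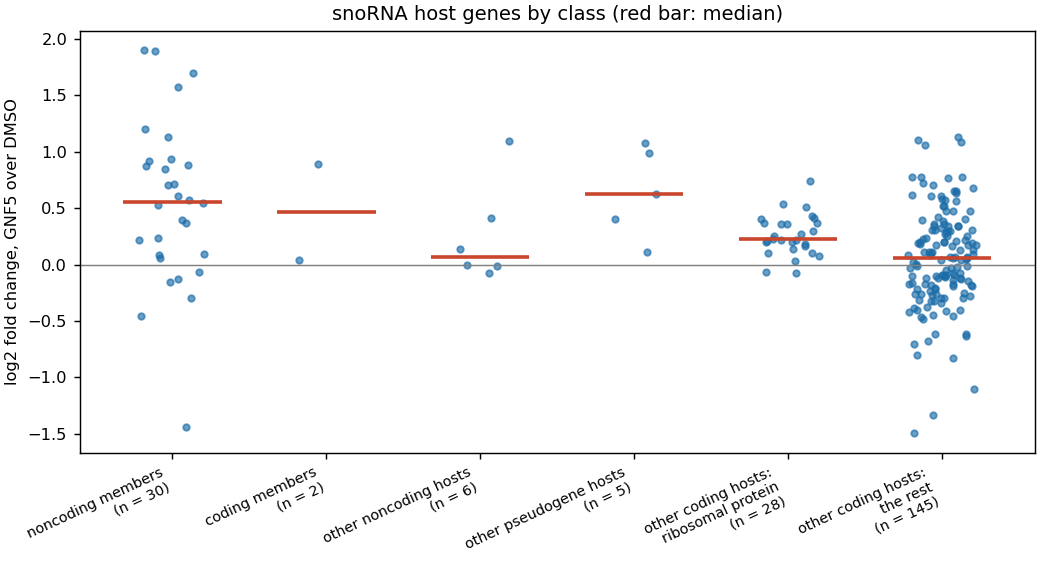
Log2 fold change, GNF5 over DMSO, of tested snoRNA host genes by class (y axis, 1 point a gene, red bar the median, n in the labels). The noncoding members have a median of 0.56 and reach 1.90, ribosomal protein hosts lie in a narrower band around 0.22, and the rest of the coding hosts lie on both sides of 0.

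Members with and without a TOP start were set side by side as a description. Over all tested genes 31.0% rose and 30.7% fell, and the shares among all genes with a TOP start were not computed. Of the 7 tested members with a TOP start in RefSeq, 6 rose, and their median log2 fold change was 0.85. Of the 21 tested members with another start there, 12 rose and 4 fell, with a median of 0.37. Among them GAS5, SNHG29, SNHG16, SNHG8, SNHG1, SNHG3 and SNHG11 have TOP transcripts in GENCODE 29. SNHG6, SNHG9, SNHG15 and SNHG25 have no entry in that table, but GENCODE 29 lists TOP starts for SNHG6 (3 of 5 transcripts) and SNHG25 (2 of 2). The grouping thus depends on the source of the start. The fallen hosts SNHG10, DANCR, SNHG30 and SNHG31 had no TOP start in RefSeq or in any GENCODE 29 transcript. The same was true of EPB41L4A-AS1, SNHG7, SNHG17, SNHG20, SNHG21, SNHG22 and SNHG26, which rose. SNHG15, which also rose, had no TOP start in any GENCODE 29 transcript. Lack of a TOP start was thus shared by hosts that fell and hosts that rose, while no member with a TOP start in either source fell. Whether the start bears on the change was not tested.

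Genes that start next to a member did not all move with it. An opposite-strand coding gene began within 1000 bases of the start of 9 members, a list drawn up after the members' values were known. Distances run between the outermost annotated starts of both genes, which need not be the starts printed above. ZNFX1, 248 bases from ZFAS1, was at 15.6 ± 1.21 CPM with GNF5 and 12.5 ± 0.762 with DMSO (log2 fold change 0.33 ± 0.073), and ZBTB37, 800 bases from GAS5, at 24.9 ± 1.76 and 13.4 ± 1.3 (0.90 ± 0.069). SLC3A2, the heavy chain of several amino acid transporters, which starts 149 bases from SNHG1, rose more than SNHG1, at 1046 ± 105 CPM with GNF5 and 253.5 ± 3.96 with DMSO (2.05 ± 0.059). MED17, 164 bases from the outermost start of TAF1D at 93784391, was not called (-0.04 ± 0.068). The RefSeq start of TAF1D, within 93741476 to 93741505, lies well inside the gene's span, so MED17 does not adjoin that start. ACAA2, 70 bases from SNHG22, fell (-0.35 ± 0.034) where SNHG22 rose. RPS2 next to SNHG9 and SEMA5A next to SNHG18 rose, BARD1 next to SNHG31 fell with it, and TRAF7 next to SNHG19 was not called. Counting used strand, so reads of these pairs were kept apart as far as the library kept strand.

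Few counts fell on the snoRNA genes themselves. The 553 named snoRNA and scaRNA genes held 0.00373% of all counts, and 58 were tested, of which 11 rose and 3 fell. These are 19.0% and 5.17%, beside 31.0% and 30.7% of all tested genes and 18.6% and 26.1% of tested noncoding genes. The share that rose was thus near that of noncoding genes at large. DESeq2 called 7 higher and 1 lower, and edgeR called 1 lower without DMSO replicate 1 and 1 without GNF5 replicate 1. Within members 6 were tested, and 0 passed edgeR's test (1 at an unadjusted p under 0.05, and 0 in DESeq2). They were SNORD6 in TAF1D, SNORA71B in SNHG17, SNORD48 in SNHG32, SNORA73B in SNHG3, SNORD104 in SNHG25 and SNORD99 in SNHG12, at log2 fold changes from 0.19 to 0.67 and all below 1.5 CPM in each group mean. Fragments that overlap both a snoRNA and an exon of its host were not counted.

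The proteins that bind or build snoRNA particles went both ways, as did all tested genes, of which 31.0% rose and 30.7% fell. Of the 8 core snoRNP proteins, 4 fell and 1 rose, with a median log2 fold change of -0.06. NOP10, of the box H/ACA particle, was at 47.3 ± 2.07 CPM with GNF5 and 62.6 ± 1.25 with DMSO (-0.41 ± 0.043), and the pseudouridine synthase DKC1 at 250 ± 8.13 and 285.7 ± 8.48 (-0.19 ± 0.034). NHP2 fell too (-0.18 ± 0.037) and GAR1 rose (0.15 ± 0.053). Of 12 assembly factors 4 rose and 4 fell (median 0.06), 33.3% each and near the shares of all tested genes. The 4 that fell were SHQ1, a chaperone of DKC1 (19 ± 0.481 CPM with GNF5, 33.4 ± 0.982 with DMSO), and the AAA+ proteins RUVBL1 and RUVBL2 and their partner PIH1D1, at -0.33, -0.33 and -0.35.

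NMD factors and the exon junction complex, which marks spliced RNA for NMD, were mixed. Of 14 NMD factors 7 fell and 4 rose (median -0.09). UPF3B (30.3 ± 1.18 CPM with GNF5, 41.3 ± 1.09 with DMSO) and SMG9 (28.8 ± 0.0351 and 44.4 ± 2.39) fell. SMG5 (202 ± 3.87 and 146.7 ± 2.26) and NBAS (41.8 ± 3.9 and 23.6 ± 2.16) rose. RUVBL1 and RUVBL2 count in this list too. Of 10 exon junction complex genes 5 fell and 2 rose (median -0.16), with the core helicase EIF4A3 at 100.4 ± 1.33 CPM with GNF5 and 140.6 ± 1.79 with DMSO and its partner RBM8A at 106.6 ± 2.78 and 141.1 ± 1.27. ACIN1 fell (-0.19 ± 0.032) and CASC3 rose (0.37 ± 0.04).

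Most translation factors and related genes whose messenger RNAs have a TOP tract rose. Of 18 tested of 20 listed, 15 rose and 1, HNRNPA1 (named after its value was seen), fell, with a median log2 fold change of 0.34. EIF4A2, a helicase of translation initiation that is itself a snoRNA host, was at 345.8 ± 18.9 CPM with GNF5 and 210 ± 1.94 with DMSO (0.72 ± 0.036), TPT1 at 711.1 ± 9.4 and 467.9 ± 21.4, RACK1 at 1660 ± 29.6 and 1125 ± 28.8, and EIF3E at 345.2 ± 19 and 237.2 ± 7.91. Of 24 factors of ribosomal RNA processing 11 rose and 4 fell (median 0.09), with DDX21 (0.44 ± 0.033), NOB1 (0.67 ± 0.052), RRP12 (0.50 ± 0.044) and UTP15 (0.55 ± 0.052) among those that rose. Of 16 genes of RNA polymerase I and its initiation factors 8 rose and 3 fell (median 0.09). TAF1D and POLR1H (0.60 ± 0.066) were among those that rose, and UBTF (-0.44 ± 0.033) and TTF1 (-0.43 ± 0.048) among those that fell. These are counts beside a background in which 31.0% of all tested genes rose and 30.7% fell.

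**Figure D4:**
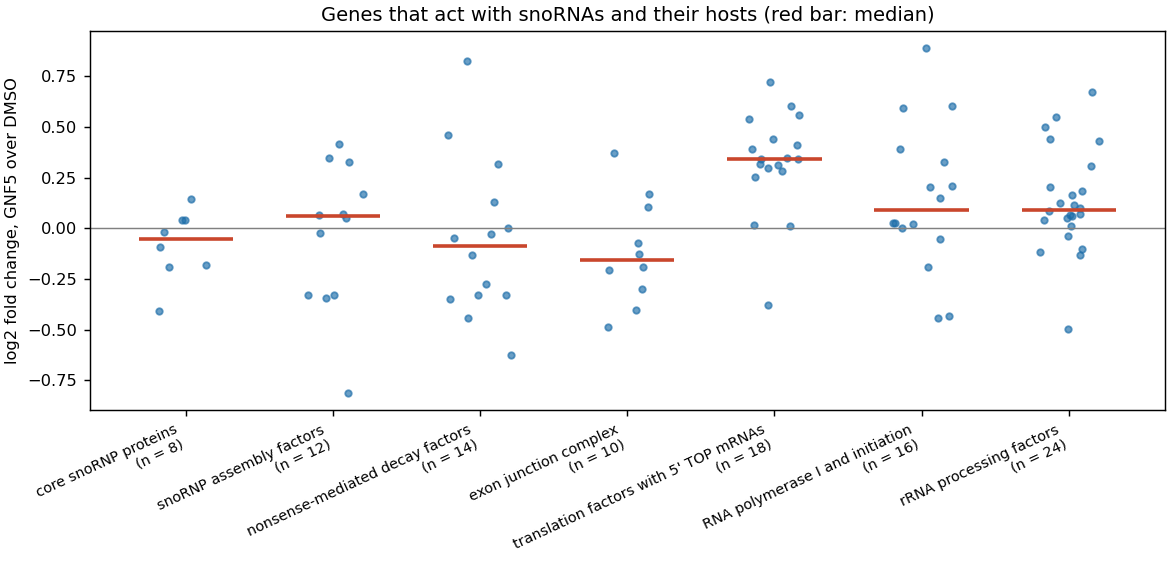
Log2 fold change, GNF5 over DMSO, of the tested genes of 7 lists (y axis, 1 point a gene, red bar the median, n in the labels). The translation factors with TOP messenger RNAs have the highest median, 0.34, and the exon junction complex the lowest, -0.16.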

How the data were processed

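The 3 GNF5 and 3 DMSO samples of NCI-H69 are RNA-seq libraries. Each deposited file holds raw counts of fragments for every gene, made by the authors with featureCounts 1.6.1 on paired, reverse-stranded fragments over Ensembl 101 exons of GRCh38, per the file headers. HTSeq, STAR, Trim Galore, DESeq2 and GRCh37 appear, with no versions, in the submitters' processing notes, and the build used here rests on the headers. Fragments shared by gene models on the same strand were not counted, which lowers hosts with shared exons. Counts were fitted with edgeR 4.0.16 in R 4.3.3 (TMM scaling, filterByExpr, robust quasi-likelihood fit, Benjamini-Hochberg adjustment over all 20734 tested genes, threshold 0.05). The 39937 untested genes held 0.063% of counts. Symbols were found for 60401 of 60671 rows. On data simulated for GNF5 against DMSO with 20324 genes fitted, 95 of 100 genes changed by 0.5 and 100 of 100 changed by 1 on the log2 scale were recovered, with 5 false calls. The changed genes were drawn from those with a mean above 5 CPM, and 20124 genes were left unchanged. Recovery at lower levels, or with as many changed genes as here, was not measured.

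The members and gene lists were chosen with earlier results of these data known. Values in every library are given for NOP56, TAF1D, the 10 noncoding members of highest level per exon length and the 5 called members of largest change each way with a mean log2 CPM of at least 1. Of each list and of the other hosts, up to 4 called genes of lowest p and the same minimum are named. One cell type marker is not reported here. Sequences come from RefSeq (GRCh38.p14) and GENCODE 29. Alternatives were DESeq2 1.42.0, other scaling factors and filters, the replicate number as a block, each library left out, members with little exon sharing, and a stricter definition of a host. Intervals for 0 counts use 3 counts and cover counting error only.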

Additional observations from a re-analysis of the deposited data

How the results depend on the processing

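The members' counts, 21 higher and 4 lower, stood under DESeq2's size factors, upper-quartile factors, no filter and DESeq2's test; the stricter filter gave 21 and 3. Of 414 values of the 32 tested members under alternatives, 394 kept their direction and their side of the threshold, and 13 members changed in at least 1 alternative. The test against 1.5-fold, a stricter question by construction, gave 1240 higher and 1560 lower genes in all, 13 and 1 members, 12 and 1 noncoding members, 12 and 5 other coding hosts, 0 other noncoding hosts higher, 3 and 1 snoRNA genes, and 3 and 1 genes of the pathway lists. The snoRNA genes called were 2 higher and 0 lower under the stricter filter, which tests fewer genes, and 7 and 1 in DESeq2, where the cause was not tested. Leaving out 1 library at a time gave 5926 to 6200 genes higher and 5969 to 6212 lower, 20 to 21 and 3 to 4 members, 19 to 20 and 3 to 4 noncoding members, 81 to 88 and 46 to 56 other coding hosts, 2 to 3 other noncoding hosts higher, 8 to 11 and 1 to 4 snoRNA genes, and 41 to 45 and 24 to 27 genes of the lists. It was 1 snoRNA gene lower without DMSO replicate 1 and without GNF5 replicate 1. The median log2 fold change ran from 0.51 to 0.58 for noncoding and from 0.43 to 0.49 for coding members, and the coding median was 0.89 with SNHG32 counted as coding. The log2 fold change of SNHG19 ran from -0.024 without GNF5 replicate 3 to 0.105 without GNF5 replicate 2, and that of SNHG27 was -0.049 without GNF5 replicate 1; neither gene was called with all libraries. With the replicate number as a block, 6279 genes were higher and 6196 lower and the members gave 21 and 4. Same-numbered libraries did not deviate together (correlations of -0.068, -0.003 and 0.006, against -0.04 to 0.04 for differently numbered ones). This shows no large shared deviation by number, but it cannot exclude that same-numbered libraries were made together. Among the 23 tested members with under 10% shared exon bases, 14 were higher and 4 lower. The stricter definition of a host asked for a snoRNA gene between the exons of the host. Of the 133 other coding hosts then tested, 61 were higher and 44 lower (45.9% and 33.1%), with a median log2 fold change of 0.08. Of the 4 other noncoding hosts then tested, 3 were higher. Depth limits SNHG27, SNHG28, SNHG31 and the snoRNA genes. For SNHG28, 90.8% of the exon bases are also shared with another gene model, where fragments were not counted. Its span holds no named snoRNA gene.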
